A study of Mus musculus with 2 samples.

Results

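Conventional natural killer (NK) cells of the mouse liver were examined: 649 of 20753 barcodes that passed a filter on cell quality, 404 of 10459 in the CCl4+IPA library and 245 of 10294 in the CCl4 library. A barcode was a member if it held at most 1 unique molecular identifier (UMI) of Cd3d, Cd3e and Cd3g summed (the CD3 sum), at least 2 UMIs of Ncr1, Klrb1c and Klre1 summed (the NK-receptor sum) and at least 2 UMIs of Eomes, Klra8, Klra4 and Prf1 summed (the effector sum). It also had to hold no UMI of Cd79a, S100a8 or Lyz2, genes of B cells, neutrophils and myeloid cells. The filter asked for 500 or more UMIs, 300 or more genes and a mitochondrial share below 20%. Members were thus chosen by measured UMI counts, and the levels of the genes in the rule describe that choice and are no finding.

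Both libraries came from livers of mice with fibrosis induced by carbon tetrachloride (CCl4), a hepatotoxin that injures hepatocytes and, when given repeatedly, scars the liver. In the CCl4+IPA group (the IPA library from here on) the mice also received IPA, indole propionic acid, which bacteria of the gut produce from tryptophan, and the CCl4 group served as the control. There was 1 library of dissociated liver cells per group. The number of animals behind each library, their strain, sex and age, the doses and the duration are not given in the sources used here, and livers without CCl4 were not analysed here.

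NK cells are innate lymphocytes that kill stressed, infected or transformed cells by releasing perforin and granzymes, and that secrete interferon gamma. Killing is held in check by inhibitory receptors for MHC class I, in mice mainly the Ly49 family encoded by the Klra genes, and released by activating receptors such as NKp46 (Ncr1), NKG2D (Klrk1) and the activating Ly49 proteins. In the liver they share the sinusoids with type 1 innate lymphoid cells (ILC1), which carry the same NK receptors but depend on T-bet without Eomes and bear CD49a (Itga1), TRAIL (Tnfsf10) and CXCR6. Conventional NK cells require Eomes and mature from a CD27-positive to a CD11b-positive (Itgam) stage, and in liver fibrosis they are known for killing activated stellate cells.

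With 1 library per group there is no replicate error, so no difference between the groups was tested and no p-value is given. Intervals in parentheses are 95% exact intervals of counting error only. The libraries held 37983923 (IPA) and 45009730 (CCl4) UMIs, and kept barcodes had medians of 2772 and 3195 UMIs with median mitochondrial shares of 1.78% and 3.52%. The libraries shared 23 barcodes, none of them a member in either, and Scrublet called 331 IPA and 278 CCl4 barcodes as doublets, of which 3 and 2 were members and were left in. Members carried 1341079 UMIs in the IPA library and 928994 in the CCl4 library, with medians of 3090.5 and 3407 UMIs and of 1484 and 1466 genes per cell. Their median mitochondrial share was 1.35% in the IPA library and 2.73% in the CCl4 library.

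The sequences before the start sites of 4 marker genes are shown because these genes name the cells: Ncr1, Klra8 and Klra4 are read by the rule, and Gzma is the marker outside it. Each is the 250 bases before the start that RefSeq gives on mouse assembly GRCm38.p6, read 5′ to 3′ on the gene's strand: Ncr1 at chr7:4337465-4337714 (plus strand), Gzma at chr13:113100982-113101231 (minus strand), Klra8 at chr6:130129899-130130148 (minus strand) and Klra4 at chr6:130067272-130067521 (minus strand). Capitals mark matches to a core of RUNX factors (TGTGGT, reverse complement ACCACA) and to a core of T-box factors, the family of Eomes and T-bet (TCACAC, reverse complement GTGTGA).
Ncr1: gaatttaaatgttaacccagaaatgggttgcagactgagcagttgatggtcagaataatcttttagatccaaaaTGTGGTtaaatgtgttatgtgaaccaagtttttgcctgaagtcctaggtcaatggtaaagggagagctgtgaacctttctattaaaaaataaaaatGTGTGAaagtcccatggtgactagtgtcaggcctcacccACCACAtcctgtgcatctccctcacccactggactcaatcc
Gzma: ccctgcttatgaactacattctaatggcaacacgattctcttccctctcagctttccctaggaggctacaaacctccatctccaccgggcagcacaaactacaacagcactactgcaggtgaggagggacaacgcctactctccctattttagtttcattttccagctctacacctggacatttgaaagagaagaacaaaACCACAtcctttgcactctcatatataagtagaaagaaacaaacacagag
Klra8: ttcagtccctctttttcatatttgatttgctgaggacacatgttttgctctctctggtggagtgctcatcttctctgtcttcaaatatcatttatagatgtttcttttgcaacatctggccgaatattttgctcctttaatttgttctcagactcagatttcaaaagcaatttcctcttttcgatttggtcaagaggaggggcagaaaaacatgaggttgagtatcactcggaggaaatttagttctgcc
Klra4: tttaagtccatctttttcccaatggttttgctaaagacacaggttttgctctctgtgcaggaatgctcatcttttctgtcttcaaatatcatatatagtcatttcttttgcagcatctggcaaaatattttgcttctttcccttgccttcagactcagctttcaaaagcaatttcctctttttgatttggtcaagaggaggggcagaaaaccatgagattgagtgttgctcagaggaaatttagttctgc
The Ncr1 window held 2 matches to the RUNX core and 1 to the T-box core, the Gzma window 1 RUNX match, and the Klra8 and Klra4 windows none of either. Of 32851 promoters of the same length, 14.0% held the RUNX core and 12.3% the T-box core on either strand, so a match is common. The Klra8 and Klra4 windows were identical at 212 of 251 aligned columns (84.5%), whereas the other pairs of these 4 windows reached 43.4% to 47.1%. Ncr1 and Klra8 have a further start in the RefSeq table that was not used.

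Conventional NK cells made up a larger share of the IPA library. They were 3.86% of kept barcodes there (3.50 to 4.25) and 2.38% in the CCl4 library (2.09 to 2.69), which is 1.62-fold higher (1.38 to 1.91). The closest cells by the rule are barcodes with NK receptors and little CD3 but an effector sum of 0 or 1 (effector-low cells), and these differed more, at 326 cells (3.12%) in the IPA library and 122 (1.19%) in the CCl4 library, 2.63-fold (2.13 to 3.27). Conventional NK cells were thus 55.3% (51.7 to 59.0) of CD3-low cells with NK receptors in the IPA library, against 66.8% (61.7 to 71.6) in the CCl4 library. Cells with at least 2 CD3 UMIs and at least 2 NK-receptor UMIs (CD3+ NK-receptor cells), which can hold NKT cells and activated T cells, were 1.23-fold more frequent in the IPA library, with 306 and 245 cells. B cells (at least 2 UMIs of Cd79a and none of the CD3 and NK-receptor genes) were 0.821-fold as frequent. The other gates also held no UMI of S100a8 and Lyz2 and, apart from B cells, none of Cd79a. Shares add up to the whole library, so a larger number of NK cells and a smaller number of other cells cannot be told apart.

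The demand for no Cd79a, S100a8 and Lyz2 UMI removed 227 of 631 otherwise matching cells in the IPA library (36.0%) and 117 of 362 in the CCl4 library (32.3%), of which 188 and 92 held at most 2 UMIs of any of the 3 genes. All 3 genes were at 0 in 35.8% of kept IPA barcodes and in 27.8% of kept CCl4 barcodes. When up to 2 UMIs of each were allowed, 592 IPA and 337 CCl4 cells matched and the log2 ratio of shares was 0.79, against 0.70 under the rule as given. After every barcode had been thinned to 1000 UMIs, 263 of 9842 IPA and 146 of 9692 CCl4 barcodes matched, a log2 ratio of 0.83.

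**Figure D1:**
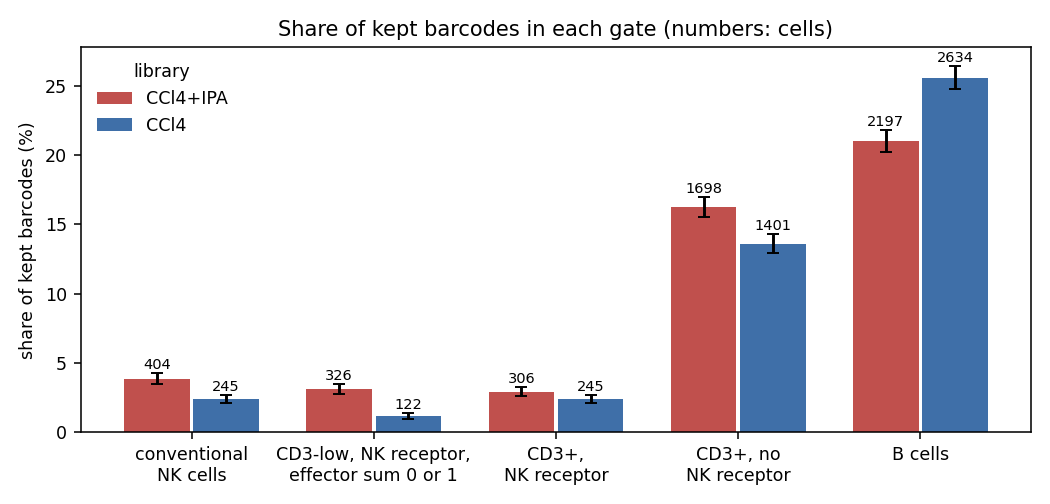
Share of kept barcodes (%, vertical axis) in conventional NK cells and 4 other gates for the IPA and the CCl4 library, with bars from 0 and error bars showing 95% exact counting intervals. Conventional NK cells stand at 3.86% in the IPA library and 2.38% in the CCl4 library, and effector-low cells at 3.12% and 1.19%.

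Members just inside and just outside the effector threshold differed in their granzyme level. Members with an effector sum of 2 (56 IPA and 23 CCl4 cells) had 2542 and 4359 counts per 1000000 UMIs of the summed cells (CPM) of Gzma, whereas CD3-low cells with a sum of 1 (118 and 41 cells) had 758 and 545 CPM. Tmem176b, a transmembrane protein gene high in ILC1, was at 218 and 159 CPM in the members with a sum of 2 and at 259.5 and 326 CPM in the cells with a sum of 1. At the NK-receptor threshold the members with a sum of 2 had 8738 (IPA) and 6287 (CCl4) CPM of Gzma, and the cells with a sum of 1 had 8780 and 7155 CPM. The Gzma level thus dropped across the effector threshold and not across the receptor threshold. The ILC1 gene Itga1 differed less at the effector threshold. It was at 122 (IPA) and 132 (CCl4) CPM in members with a sum of 2, and at 127 and 107 CPM in cells with a sum of 1. Cd200r1 was at 122 and 66.1 CPM in these members and at 118 and 107 CPM in these cells.

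The label of conventional NK cells was checked with Gzma, the only one of its 6 markers (Ncr1, Klra8, Klra4, Eomes, Gzma and Prf1) that the rule does not read. Gzma, which encodes granzyme A, reached 8393 CPM in IPA members and 9731 CPM in CCl4 members, 11.9-fold and 28.5-fold above the remaining kept barcodes (708 and 342 CPM). A Gzma UMI was found in 84.9% of IPA members and 92.2% of CCl4 members. After thinning to 1000 UMIs this was 80.8% and 90.4%, against 2.59% and 1.45% of B cells, whose median depths before thinning were 2349.5 and 2801 UMIs (3105 and 3455 in members). The marker genes within the rule lay at 1057 and 1115 CPM (Prf1, perforin), 693 and 665 CPM (Klra4, Ly49D), 623 and 574 CPM (Klra8, Ly49H), 554 and 343 CPM (Eomes) and 471 and 567 CPM (Ncr1), each IPA before CCl4. The Gzma level of the members is that of the label in both libraries.

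Genes that the rule did not name set the members apart from other barcodes in both libraries, which describes the chosen cells and was not tested. Cma1, a chymase gene, was 32.0-fold (IPA) and 69.1-fold (CCl4) above the remaining barcodes, and Serpinb9b, a gene of the serpin family that inhibits granzymes, 31.2-fold and 66.4-fold. Further Ly49 genes followed, with Klra9 at 19.2-fold and 29.4-fold, the pseudogene Klra13-ps at 16.5-fold and 43.6-fold, Klra3 at 15.5-fold and 42.5-fold and Klra7 (Ly49G) at 13.1-fold and 27.0-fold. Itga2, which encodes CD49b, the integrin chain that marks conventional NK cells in liver, was 11.5-fold and 23.3-fold above the rest, at 239 and 209.9 CPM. Adamts14, a procollagen N-propeptidase gene, was 14.7-fold and 30.2-fold above, and Styk1, a receptor-type kinase gene, 10.0-fold and 39.2-fold. The fold was the smaller in the IPA library for each of these genes. The remaining barcodes include 227 IPA and 117 CCl4 cells that failed the rule only by a Cd79a, S100a8 or Lyz2 UMI. They also include the 326 and 122 effector-low cells, and the part of both in these folds was not tested.

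Set against effector-low cells, members had more Gzma, Itgam and S1pr5 and less of several ILC1 genes. Gzma was 13.2-fold (IPA) and 17.8-fold (CCl4) higher in members, at 8393 against 636 CPM in the IPA library and 9731 against 547 CPM in the CCl4 library. Gzmb was 3.67-fold and 4.36-fold higher, whereas the granzyme gene Gzmc was at 0.296 and 0.097 of the effector-low level, on 16 (IPA) and 11 (CCl4) UMIs in members. Itgam (CD11b) was 12.9-fold and 9.75-fold higher, S1pr5, a sphingosine phosphate receptor for exit from tissue, 8.05-fold and 13.3-fold, and Klrg1 7.37-fold and 9.47-fold. Zeb2, a transcription factor of terminal NK maturation, was 5.07-fold and 4.67-fold higher. In the other direction Il7r, a cytokine receptor chain, stood at 53.7 CPM in IPA members against 345 CPM in IPA effector-low cells, and at 34.4 against 245 CPM in the CCl4 library. Cxcr6 was at 0.224 and 0.112 of the effector-low level, Cd200r1, an inhibitory receptor of ILC1, at 0.215 and 0.057, Tnfsf10 at 0.251 and 0.196, and Tmem176b at 0.252 and 0.096. Xcl1, a chemokine for cross-presenting dendritic cells, was at 0.43 and 0.40, and Ltb at 0.34 and 0.23. Tbx21, which encodes T-bet, was at 1.20 and 1.11 of the effector-low level. The effector-low cells were not of 1 kind. Conventional dendritic cell markers summed to 308 (IPA) and 1257 (CCl4) CPM in them, against 195 and 181 CPM in members. Among these markers H2-Ab1 was at 65.6 and 764 CPM in effector-low cells. The part of such cells in the ratios above, those of the CCl4 library above all, was not tested.

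Set against CD3+ NK-receptor cells, the members lacked T cell coreceptors and had more Irf8. Cd8a stood at 4.47 CPM in IPA members against 413 CPM in the IPA CD3+ cells, and at 1.08 against 444 CPM in the CCl4 library. Gzmk, a granzyme of memory T cells, was at 0.057 (IPA) and 0.092 (CCl4) of the level in CD3+ cells, Ctla4 at 0.094 and 0.045, and Bcl11b, a T cell lineage factor, at 0.069 and 0.055. Irf8, a transcription factor that NK cells need against viral infection, was at 1535 against 188 CPM in the IPA library and at 1045 against 131 CPM in the CCl4 library, 8.18-fold and 7.96-fold higher in members. The tetraspanin gene Cd9 was 4.74-fold and 9.69-fold higher, and Gzma 2.57-fold and 3.99-fold. Gzmb (1.19 and 1.12) and the chemokine gene Ccl5 (0.962 and 1.02) lay at like levels in members and in CD3+ NK-receptor cells.

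**Figure D2:**
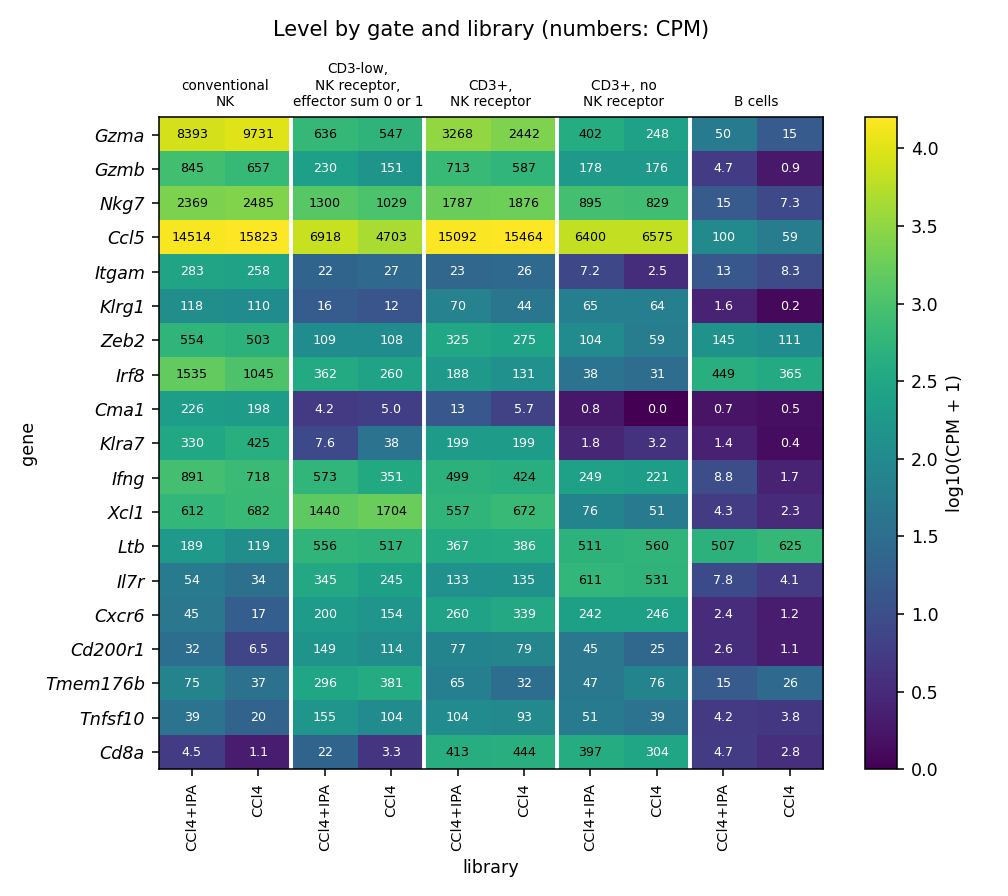
CPM of 19 genes (rows) in conventional NK cells and the gates beside them (columns), for the IPA library and then the CCl4 library within each gate, with colour for log10(CPM + 1). Gzma, Itgam and Irf8 are highest in conventional NK cells, Xcl1 and Tmem176b in effector-low cells, and Cd8a in CD3+ cells.

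The members were not uniform, and transcripts of ILC1 were concentrated in those that met the effector sum through Prf1 alone. Such members numbered 79 of 404 (19.6%) in the IPA library and 36 of 245 (14.7%) in the CCl4 library, 1.33-fold (0.887 to 2.03). They held 54 of 60 Cxcr6 UMIs of the IPA members and 15 of 16 of the CCl4 members. Tmem176b was at 278 and 184 CPM in them, against 17.2 and 6.5 CPM in members with a UMI of Eomes, Klra8 or Klra4. Itga1 was at 166 and 88.8 CPM against 25.8 and 11.7 CPM, and Gzma at 4421 and 7767 CPM against 9512 and 10132 CPM. A UMI of any of Itga1, Cd200r1, Tmem176a and Tmem176b was found in 19.6% of IPA members and 10.2% of CCl4 members, 1.92-fold (1.21 to 3.14).

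Markers of other cell types in the members were summed over fixed lists. All 11 of 11 ILC1 markers had a UMI in both libraries, summing to 675 CPM in IPA members and 334 CPM in CCl4 members, against 2486 and 2114 CPM in effector-low cells. All 12 of 12 T cell markers had a UMI, summing to 535 and 370 CPM against 5198 and 5868 CPM in CD3+ NK-receptor cells. B cell markers summed to 227 and 183 CPM against 14338 and 11815 CPM in B cells, neutrophil markers to 169 and 78.6 CPM, monocyte or macrophage markers to 21.6 and 52.7 CPM and hepatocyte markers to 76.8 and 48.4 CPM. Among the ILC2 and ILC3 markers, Il22, Il5, Il13, Il17rb and Il23r had no UMI in members of either library. The sums for ILC1, T cells and neutrophils were the higher in IPA members, and their part in the differences between the libraries was not tested except where values without the ILC1-type members are given.

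Ly49 receptors are expressed by NK cells in overlapping subsets, and the members showed such a mixture. A Klra8 or Klra4 UMI was found in 250 IPA members (61.9%) and 163 CCl4 members (66.5%), and a UMI of both in 27.7% and 25.7%. Over 11 Ly49 genes, a member had a UMI of 2.09 genes on average in the IPA library and 2.32 in the CCl4 library, with a maximum of 6. None of the 11 was found in 18.3% of IPA members and in 9.80% of CCl4 members, and after thinning to 1000 UMIs in 27.3% and 20.8%. The rule reads Klra8 and Klra4, so all these shares and averages are partly set by the choice of members. Klra7, which it does not read, had a UMI in 34.2% of IPA members and 43.3% of CCl4 members. Reads of some Ly49 genes can be confused: of the 50-base words in the last 400 bases of their transcripts, none in Klra4 and Klra7, 15.7% in Klra8, 36.6% in Klra3 and 37.7% in Klra9 occur in another Ly49 gene. The levels of Klra3 and Klra9 are therefore uncertain.

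Members with a Klra8 or Klra4 UMI differed from members without in genes the rule did not read. S1pr5 was 1.84-fold (IPA) and 1.62-fold (CCl4) higher in them, Irf8 1.61-fold and 1.55-fold, and Klra7 2.87-fold and 3.20-fold. Cd226 (DNAM-1), an activating adhesion receptor, was at 0.23 and 0.26 of the level in members without, Klrc1 (NKG2A), an inhibitory receptor for Qa-1, at 0.23 and 0.39, Klrb1b, the inhibitory receptor for Clr-b, at 0.25 and 0.21, and S100a4 at 0.19 and 0.295. Cxcr6 had 1 UMI in the Klra8 or Klra4 members of each library, against 59 (IPA) and 15 (CCl4) UMIs in the others. Members without either gene had to meet the effector sum through Eomes and Prf1, and they include the ILC1-type members above.

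By maturation genes, members with late-stage genes and no Cd27 were the largest class in both libraries as deposited, but not after thinning to 1000 UMIs. The late class could be met through any of 4 genes and the early class through Cd27 alone, which favours the late class. Members with a UMI of Itgam, Klrg1, Cx3cr1 or S1pr5 and none of Cd27 (mature members) were 53.2% in the IPA library and 62.4% in the CCl4 library, 0.852-fold (0.689 to 1.06). Members with Cd27 and none of these 4 genes (Cd27-only members) were 58 cells (14.4%, 11.1 to 18.2) in the IPA library and 21 cells (8.57%, 5.38 to 12.8) in the CCl4 library, a ratio whose interval starts at 1.00 (upper bound 2.91). A UMI of both kinds was found in 8.42% and 10.6%, and of neither in 24.01% and 18.4%. After thinning to 1000 UMIs the Cd27-only share was 7.85% and 4.58%, and the mature share 39.0% and 42.1%. Neither kind of UMI was then found in 51.9% and 52.1% of members, the largest class. Among members with no UMI of the 4 ILC1 genes the Cd27-only share was 10.2% (IPA) and 8.18% (CCl4), so that the difference between the libraries was smaller there. Cd27-only members had medians of 4101 and 4018 UMIs and mature members of 2768 and 3166 UMIs, so that depth also separated the states.

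Genes outside the 5 that define the states ran with them in both libraries alike. Emb (embigin), a gene of less mature NK cells, stood at 932 CPM in Cd27-only members against 233 CPM in mature members of the IPA library, and at 567 against 83.6 CPM in the CCl4 library. Ltb was 5.44-fold (IPA) and 4.41-fold (CCl4) higher in Cd27-only members, Xcl1 6.57-fold and 2.48-fold, Cxcr3 3.30-fold and 11.2-fold, Cd7 3.74-fold and 2.61-fold, and Tcf7, which encodes TCF-1, 3.88-fold (2.34 to 6.52) and 2.23-fold (0.896 to 5.13). Tmem176b was 25.0-fold and 22.4-fold higher, so the Cd27-only members held ILC1 transcripts too, and the part of these in the other ratios was not tested.

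Effector genes ran the other way. Gzma was at 2947 CPM in Cd27-only members against 12729 CPM in mature members of the IPA library, and at 4668 against 13439 CPM in the CCl4 library. Gzmb was at 0.32 (IPA) and 0.27 (CCl4) of the mature level, Prf1 at 0.39 and 0.44, Zeb2 at 0.13 and 0.29, Prdm1 (Blimp-1), a transcriptional repressor of late maturation, at 0.32 and 0.25, and Cma1 at 0.05 and 0.07. Ncr1 (0.92 and 0.84), Klrk1 (1.23 and 0.97) and Klra7 (1.09 and 0.98) were close to even between the states. Prf1 and Ncr1 are read by the rule, so their levels are partly set by the choice of members.

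**Figure D3:**
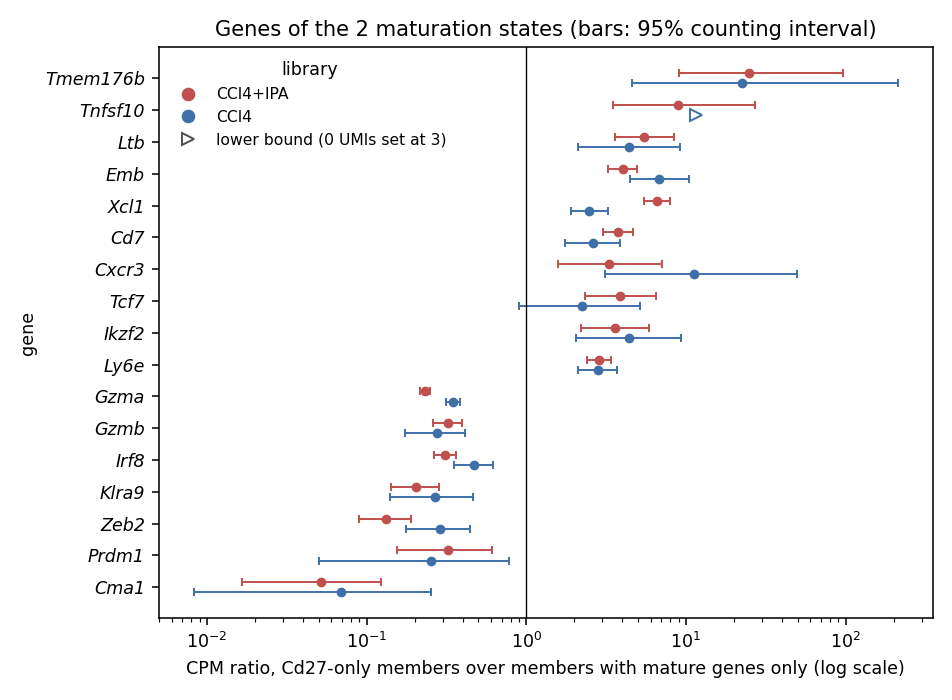
Ratio of CPM in Cd27-only members over mature members (horizontal log axis) for 17 genes, for the IPA and the CCl4 library, with bars for 95% exact counting intervals. Ltb, Emb and Xcl1 lie above 1 and Gzma, Gzmb, Irf8 and Zeb2 below 1 in both libraries, and the open triangle is a lower bound for Tnfsf10, which had no UMI in mature CCl4 members.

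Expression of all members was then compared between the IPA and the CCl4 library. Of 55357 genes listed, 5711 had at least 50 UMIs over the members of both libraries. In the IPA members 891 of them (15.6%) were at least 1.5-fold higher and 93 (1.63%) at least 1.5-fold lower. The median gene was 1.14-fold higher (0.19 on the log2 scale). Rn18s-rs5, a ribosomal RNA gene, took 1.30% of the UMIs of IPA members and 8.07% of those of CCl4 members, and without it the median gene was 1.06-fold higher. The split between directions depended on this scaling. Of the genes past 1.5-fold, 90.5% were higher in IPA members with CPM, 79.8% when Rn18s-rs5 was left out, 67.8% without mitochondrial, ribosomal, haemoglobin and ribosomal RNA genes, and 62.1% with median-of-ratios scaling. Single-gene ratios below are on the CPM scale, and list medians are given less the all-gene median.

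The 12 highest ratios were taken among genes at 100 CPM or more in the higher library. Nr4a3, an orphan nuclear receptor induced by receptor signalling, was at 356 CPM in IPA members and 109.8 CPM in CCl4 members, 3.25-fold (2.62 to 4.06), and the chemokine receptor gene Cxcr4 at 441 and 157 CPM, 2.81-fold (2.34 to 3.39). Bcl2l11, which encodes the proapoptotic protein BIM, was at 607 and 237 CPM (2.56-fold, 2.21 to 2.99), Fosl2, an AP-1 subunit, at 553 and 241 CPM (2.29-fold, 1.97 to 2.68), and Vps37b, a subunit of the ESCRT-I complex, at 1376 and 628 CPM (2.19-fold, 2.00 to 2.41). The others of the 12 were Ier5l (3.20), Pgm2l1 (2.64), the chemerin-binding receptor gene Ccrl2 (2.55), Lmna, which encodes lamin A/C (2.53), Dgat1, an enzyme of triglyceride synthesis (2.41), the histone demethylase gene Kdm6b (2.36) and the G protein-coupled receptor gene Gpr132 (2.20), given as ratios. Every gene of the 12 was higher in IPA members under each of 18 settings, the one reported included. Not all of these settings could alter a ratio. Those on the lowest UMI count of a measured gene only change which genes are counted. Leaving out barcodes found in both libraries removed no member. The changes of scaling shift all genes alike, a weak check on genes picked for the highest ratios. Cxcr4 was 1.11-fold higher in Cd27-only and 3.20-fold in mature members, while the log2 ratio of Gpr132 was 2.07 in Cd27-only and 0.33 in mature members.

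The share of members with a UMI differed in the same direction for these genes after thinning to 1000 UMIs. Nr4a3 was found in 20.5% of IPA members and 10.4% of CCl4 members, against 2.41% and 1.18% of B cells, and Bcl2l11 in 32.4% and 14.2%, against 8.002% and 5.69% of B cells. Fosl2 was found in 36.2% and 23.75% of members, against 1.85% and 1.03% of B cells. Before thinning the shares of members were 41.8% and 25.7% for Nr4a3, 58.9% and 40.0% for Bcl2l11, and 61.9% and 46.9% for Fosl2. Cxcr4 was found in 27.8% and 10.0% of thinned members and in 66.3% and 51.9% of thinned B cells, a cell type that expresses it.

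The same genes were higher in other lymphocytes of the IPA library, where the median gene was 1.18-fold (effector-low and CD3+ NK-receptor cells), 1.21-fold (CD3+ cells without NK receptors) and 1.20-fold (B cells) higher. Nr4a3 was 1.75-fold higher in effector-low, 2.34-fold in CD3+ NK-receptor cells, 2.24-fold in CD3+ cells without NK receptors and 1.82-fold in B cells. Vps37b lay between 1.81-fold and 2.18-fold in the 4 gates, Bcl2l11 between 1.52-fold and 2.32-fold, and Cxcr4 between 1.31-fold and 1.68-fold. Of the 12 genes, Ccrl2 alone was below 1 in a gate, at 0.89 in CD3+ NK-receptor cells. In members Nr4a3 (3.25), Vps37b (2.19), Bcl2l11 (2.56) and Cxcr4 (2.81) had higher ratios than in any of the 4 gates. The 12 genes were picked for the highest ratios in members, however, which favours such an order. The differences between gates were not tested.

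Among genes at 100 CPM or more in the higher library, the lowest ratio belonged to ribosomal RNA. Rn18s-rs5 was 6.20-fold higher in CCl4 members, Lars2, a mitochondrial leucyl-tRNA synthetase gene, 5.39-fold (321 CPM in IPA members against 1728 CPM in CCl4 members) and Mir6236 2.73-fold. The linker histone gene H1f4 was at 129 and 281 CPM, 2.18-fold higher in CCl4 members. In the 4 other gates Rn18s-rs5 was at 0.14 to 0.17 and Lars2 at 0.18 to 0.23 of its CCl4 level. Of the remaining 8 of the 12 lowest at that level, Ppp1r10 (1.65), Eif1b (1.56), H2ac24 (1.53) and Ssr4 (1.53) passed 1.5-fold in favour of CCl4 members, and Copa, Plac8, Taf1d and Mrpl20 did not.

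**Figure D4:**
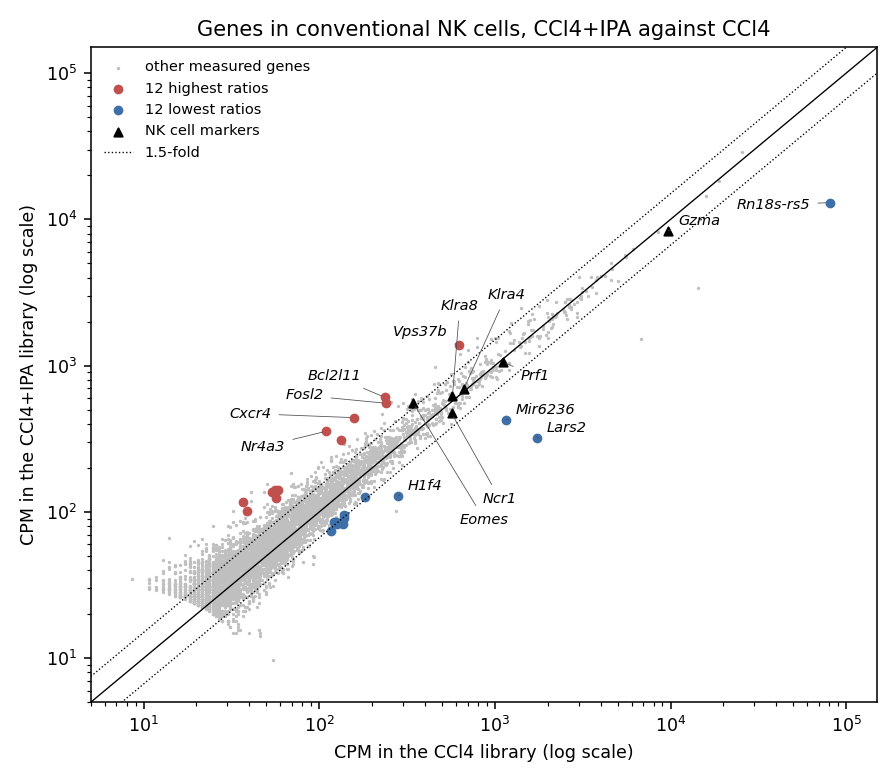
CPM of each measured gene summed over conventional NK cells in the CCl4 library (horizontal, log scale) and in the IPA library (vertical, log scale), with the line of equal CPM and dotted lines at 1.5-fold. Coloured points are the 12 highest and the 12 lowest ratios, and triangles mark NK cell markers, which lie within 1.5-fold except Eomes. All of these markers but Gzma are read by the rule.

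The main genes of killing were at close levels in the 2 groups. Gzma was at 0.863 (0.839 to 0.887) of the CCl4 level in IPA members and Prf1 at 0.947 (0.874 to 1.03). Prf1 is read by the rule, so its level is partly set by the choice of members. Gzmb was at 845 CPM in IPA members and 657 CPM in CCl4 members, a ratio of 1.29. Of 17 measured genes of cytotoxic granules and death ligands, 5 were at least 1.5-fold higher (29.4%, against 15.6% of all genes). None was lower, against 1.63% of all genes. The median of this list, which includes Prf1, was 0.08 on the log2 scale above all genes. The 5 were Tnfsf10 (1.90), the granule-priming factor gene Unc13d (1.70), Rab27a, which docks granules (1.63), and the granzyme inhibitor genes Serpinb9 (1.58) and Serpinb6b (1.52). Nkg7, needed for degranulation, was at 0.953, and Fasl at 1.39. Tnfsf10 is also an ILC1 gene, and in members with no UMI of the 4 ILC1 genes its ratio was 2.49 on 16 and 5 UMIs, with an interval from 0.873 to 8.71.

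Activating receptor genes were at least 1.5-fold higher in a smaller share than all genes (15.6%), and inhibitory receptor genes in a like share. These differences were not tested. Of 24 activating receptor and adaptor genes, 1 was at least 1.5-fold higher (4.17%), Cd226 at 1.98, and none lower, with a median of -0.06 relative to all genes. The log2 ratio of Cd226 was 0.03 within mature and 1.23 within Cd27-only members. Ncr1 was at 0.831 (0.739 to 0.934), Klrk1 at 1.00, Klra8 at 1.09, Klra4 at 1.04 and Tyrobp (DAP12) at 0.943 of the CCl4 level, of which Ncr1, Klra8 and Klra4 are read by the rule. Of 13 inhibitory receptor genes 2 were higher (15.4%, against 15.6% of all genes), and the median was -0.26. Klrb1b was at 314 CPM in IPA members and 164 CPM in CCl4 members (1.92-fold, 1.59 to 2.33), and within Klra8 or Klra4 members the ratio was 2.11. Cd96 was at 1.501 (0.999 to 2.29), whereas the Ly49 genes Klra3 (0.703, 0.593 to 0.833) and Klra7 (0.775, 0.675 to 0.890) were below 1.

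Genes of immature NK cells passed 1.5-fold more often than genes of mature NK cells, a difference that was not tested. Of 15 immature genes, 4 were at least 1.5-fold higher (26.7%, against 15.6% of all genes) and 1 lower (6.67%, against 1.63%). Their median was 0.18 above all genes. Emb was at 562 CPM in IPA members and 257 CPM in CCl4 members, 2.19-fold (1.89 to 2.54), and 2.49-fold within Klra8 or Klra4 members. Ltb (1.58), Il7r (1.56) and Ly6e (1.55) were the other 3, and Ctla2b, with 27 and 30 UMIs, was at 0.623. Il7r went the other way in members with a Klra8 or Klra4 UMI, at 0.383 (7 and 13 UMIs, 0.129 to 1.03), and in members with no UMI of the 4 ILC1 genes, at 0.446 (8 and 14 UMIs, 0.162 to 1.14). Of 17 mature genes none passed 1.5-fold in either direction, with a median of -0.06, and Irf8, at 1535 and 1045 CPM, was the highest at 1.47. S1pr5 was at 0.801.

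Among 20 transcription factors of NK cells, 8 were at least 1.5-fold higher (40.0%, against 15.6% of all genes). None was lower, against 1.63% of all genes, and the median was 0.18 above all genes. Rora, a nuclear receptor of innate lymphoid cells, had 85 and 18 UMIs (3.27-fold, 1.95 to 5.78), Stat5a was at 2.22, Maf at 1.89, Gata3 at 1.70, Ikzf2 (Helios) at 1.69, Nfil3, which NK development requires, at 1.56, and Foxo1 at 1.53. Eomes, at 1.61 (1.41 to 1.85), is a gene of the rule. Tbx21 was at 1.24. Rora is also on the list of ILC1 markers, whose sum was higher in IPA members. Within Klra8 or Klra4 members Rora had 23 and 5 UMIs (3.27-fold, 1.22 to 11.0) and Maf was at 1.16 (0.776 to 1.76).

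NF-kB and immediate early genes were the lists farthest above all genes. Of 18 NF-kB genes 8 were at least 1.5-fold higher (44.4%, against 15.6% of all genes). None was lower, against 1.63% of all genes, and the median was 0.37 above all genes. Tnfaip3 (A20), a feedback inhibitor of NF-kB, was at 1286 CPM in IPA members and 699.7 CPM in CCl4 members (1.84), Nfkbiz at 1.86, Rel at 1.59 and Nfkbia at 1.52. Of 29 immediate early and dissociation stress genes 10 were higher (34.5%) and none lower, with a median of 0.33. Nr4a1 was at 1535 and 788 CPM (1.95), Egr3 at 2.03, Dusp1 at 1.76 and Egr1 at 1.67, whereas Fos (1.34), Jun (1.08) and the heat shock gene Hspa1a (0.839) did not pass 1.5-fold. Nr4a1 was 1.69-fold to 2.11-fold higher in the 4 other gates and Tnfaip3 1.55-fold to 1.68-fold. Enzymatic dissociation is known to induce such genes, and its part was not tested.

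Cytokine genes differed by member. Interferon gamma (Ifng) was at 891 CPM in IPA members and 718 CPM in CCl4 members, 1.24-fold (1.13 to 1.37), and a UMI was found in 39.0% and 37.9% of members after thinning (58.4% and 64.1% before), against 0.833% and 0.229% of thinned B cells. Of 14 secreted cytokine and chemokine genes 4 were higher (28.6%, against 15.6% of all genes) and 1 lower (7.14%, against 1.63%), with a median of 0.08. Osm (1.84), Vegfa (1.80), Flt3l (1.74) and Ltb were higher, and Tnf, with 26 and 34 UMIs, was at 0.530. Ccl3 (1.17), Ccl4 (1.04) and Ccl5 (0.917) were near even. Of 22 genes of cytokine receptors and their signalling, 7 were higher (31.8%) and none lower, with a median of 0.20. They were Il4ra (2.53), Socs1 (2.39), Il21r (2.34), Stat3 (1.83), Cish (1.69), Il10ra (1.67) and Socs3 (1.52), and Il2rb, a receptor chain for the growth factors of NK cells, was at 1.44. Il21r is also on the list of ILC1 markers. Its log2 ratio was 0.05 within mature and 2.69 within Cd27-only members.

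Homing genes past 1.5-fold included the ILC1 markers Cxcr6 and Itga1. Of 21 measured, 8 were at least 1.5-fold higher (38.1%, against 15.6% of all genes) and none lower (1.63% of all genes). The median was 0.155 above all genes. Besides Cxcr4 the 8 included Cxcr6 (2.60), Itgav (2.46), Itga1 (2.29), Icam1 (2.07), Rgs2 (1.89) and Rgs1 (1.58). In members with no UMI of the 4 ILC1 genes Cxcr6 was at 0.780 on 5 and 5 UMIs, with an interval from 0.179 to 3.39. Cd69, a retention and early activation gene, was at 1.44, and Cd48 at 0.715.

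Interferon-response genes lay above all genes in both lists. Of 21 type I genes 5 were higher (23.8%, against 15.6% of all genes) and none lower (1.63% of all genes), with a median of 0.26. Among the 5 were Stat2 (2.04), Ifi27l2a (1.85) and Ifit1 (1.75), whereas Ifit2 (0.693) and Bst2 (0.719) were below 1. Of 16 genes induced by interferon gamma 4 were higher (25.0%) and none lower, with a median of 0.21, among them Gbp5 (1.90), which was at 0.678 (0.355 to 1.29) within Klra8 or Klra4 members. Of 22 survival and death genes 7 were higher (31.8%, against 15.6% of all genes) and none lower, with a median of 0.13. The 7 included the prosurvival genes Pim2 (2.16), Bcl2l1 (1.74) and Bcl2 (1.67) beside Bcl2l11.

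Proliferation genes were at like levels in both groups. Mki67 or Top2a UMIs were found in 44 IPA members (10.9%) and 28 CCl4 members (11.4%), and Mki67 was at 0.990. Of 16 cell cycle genes 2 were higher (12.5%, against 15.6% of all genes) and 1 lower (6.25%, against 1.63%), with a median of -0.09. The lower one was Ube2c with 19 and 43 UMIs (0.306). Of 20 genes of growth, Myc and glycolysis 2 were higher (10.0%), Myc (2.03) and Odc1 (1.95), and none lower, with a median of -0.02.

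A list of aryl hydrocarbon and xenobiotic receptor genes was examined because indole compounds are known ligands of the aryl hydrocarbon receptor. Of its 15 genes only 6 were measured, and Ahrr, Cyp1a1, Cyp1b1 and Nqo1 were among those with too few UMIs. Of the 6, 2 were higher (33.3%, against 15.6% of all genes) and 1 lower (16.7%, against 1.63%), with a median of 0.17. Ahr had 61 and 18 UMIs (2.35), Tiparp, a target gene, was at 1.71, and Lgals3 was at 0.642. Within mature members the log2 ratio of Tiparp was -0.17. Of 11 genes by which NK cells are known to act on stellate cells, Tnfsf10 alone was higher (9.09%) and none lower, with a median of 0.12. Ncr1 and Prf1, which the rule reads, are on that list. Of 13 MHC class I genes none passed 1.5-fold, with a median of 0.01. Over all 19 lists, 14 had a median above that of all genes.

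**Figure D5:**
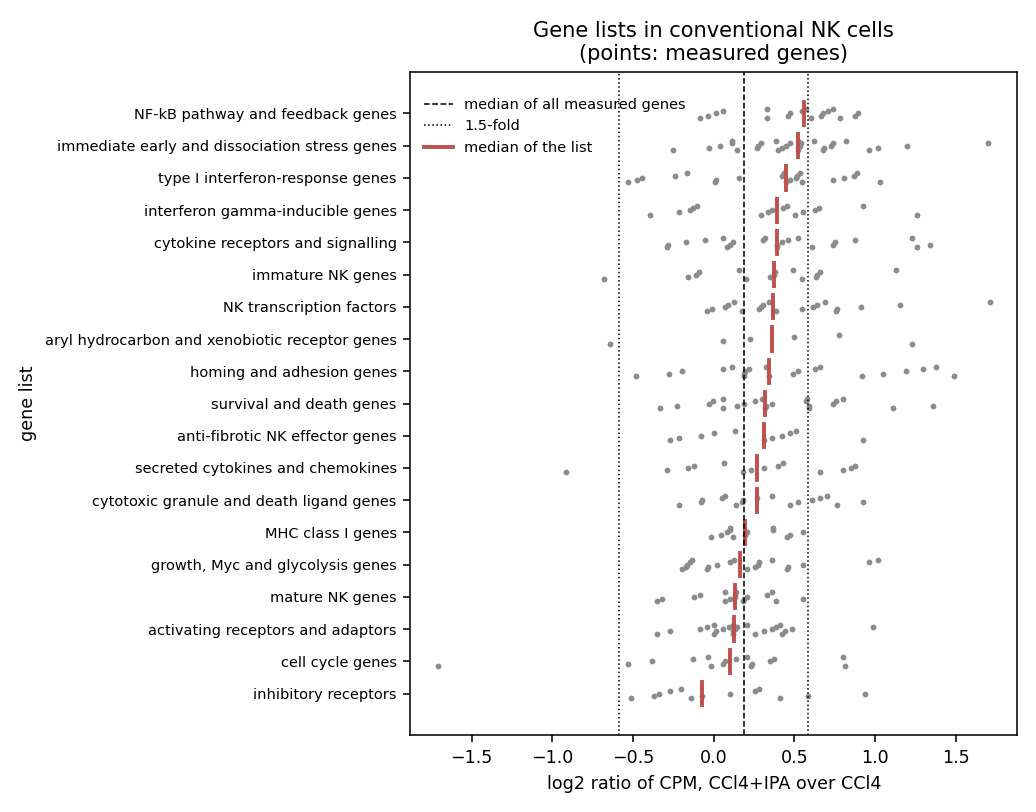
Log2 ratio of CPM, IPA over CCl4 (horizontal axis), of each measured gene in the 19 lists (rows) in conventional NK cells, with a bar at each list median, a dashed line at the all-gene median of 0.19 and dotted lines at 1.5-fold. The medians of NF-kB and immediate early genes lie farthest to the right, and the median of the inhibitory receptors lies left of the all-gene median, with 6 of their 13 genes above 0.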

How the data were processed

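Droplet single-cell RNA sequencing was measured in 2 mouse liver libraries, CCl4+IPA and CCl4. Per the labels' protocols, tissue was digested with collagenase and papain, red and dead cells were taken out, and a 10x Genomics 3′ V3 kit and an Illumina NovaSeq instrument were used. The authors deposited raw UMI counts, and Cell Ranger 7.1.0 wrote them, per the file headers. The submitters' processing notes name mm9. The counting of intronic reads and the calling of cells are not stated. Genes were kept apart by identifier, since 901 share a symbol with an earlier one.

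The members, the 13 marker lists and the 19 gene lists were chosen with earlier results of these data known. UMIs were summed over members per library and scaled to CPM. Shares have exact Clopper-Pearson intervals, CPM exact Poisson intervals and ratios exact conditional binomial intervals, at 95%, all for counting error only, since with 1 library per group no test was run. A gene was measured with at least 50 UMIs over both libraries, and a 0 was set at 3 UMIs to bound a ratio. Named genes were the 12 highest and 12 lowest ratios among genes with at least 50 UMIs and 100 CPM in the higher library, without genes of mitochondria, ribosomal proteins, haemoglobins, immunoglobulins and T cell receptor segments, unnamed gene models, Xist and Y-linked genes, and without genes over 10 times higher in other cells of both libraries, which were kept out of the ranking. Other rules took the 15 highest identity genes and 8 genes each way between gates and states, of which not all are printed; which list members to name beyond the rule was decided with their values known. Motifs and sequences come from the RefSeq promoter table (GRCm38.p6), and no coordinates of the files were used. Mature and Cd27-only states, thinning to 1000 UMIs, other thresholds, scalings and memberships were computed as alternatives. The code was tested on simulated data. Scripts ran in Python 3.11.15 (scanpy 1.11.5 for Scrublet, scipy 1.17.1, biopython 1.88, matplotlib 3.10.9, pandas 2.3.3, numpy 2.4.6), seeded with 1.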

Additional observations from a re-analysis of the deposited data

How the results depend on the processing

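No paired analysis was possible because each group has 1 library. The NK share stayed higher in the IPA library under every alternative, with log2 ratios of 0.54 (members with no UMI of 4 ILC1 genes) to 0.85 (effector sum of at least 1). The Cd27-only and mature shares kept their direction. The share with both kinds of UMI did not, at 0.793-fold as deposited and 2.17-fold (0.908 to 5.97) after thinning to 2000 UMIs. The share with neither was 1.31-fold as deposited and 0.996-fold after thinning to 1000 UMIs. The counts of genes at least 1.5-fold higher and lower in IPA members, 891 and 93, moved most with scaling and depth: to 428 and 261 with median-of-ratios scaling, 469 and 223 without mitochondrial, ribosomal, haemoglobin and ribosomal RNA genes, 606 and 153 without Rn18s-rs5, 329 and 50 after thinning, 1677 and 318 from 20 UMIs, 189 and 11 from 200 UMIs, and 239 and 55 within Cd27-only members. Equal weighting of members gave 149 lower, mature members 519 higher, and Klra8 or Klra4 members 61 lower. Fewer genes were measured within the states, in Klra8 or Klra4 members, after thinning and from 200 UMIs. For the other settings the cause was not tested. Of genes past 1.5-fold, log2 ratios that changed sign were -0.81 for Osm within Cd27-only members, -0.17 for Tiparp within mature members, 0.20 for H2ac24, -1.39 for Il7r and -0.56 for Gbp5 in Klra8 or Klra4 members, and -0.36 for Cxcr6 and -1.17 for Il7r in members with no UMI of 4 ILC1 genes. Named genes short of 1.5-fold changed sign too, among them Plac8 (0.91) and Klrc1 (-0.29) within mature and Taf1d (0.29) within Cd27-only members. Settings with Klra8 or Klra4 members, with no ILC1 genes and without Rn18s-rs5 were chosen after seeing the data. The UMIs of members, 1341079 and 928994, limit low genes. Genes were measured from 50 UMIs over all members, but ratios within and between subsets of members can rest on 5 UMIs or fewer. Tnfsf10 had no UMI in mature CCl4 members. Not all ratios of subsets are printed with their counts.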

Other observations

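S100a9, a neutrophil gene over 10 times higher in other cells of both libraries, was at 113 CPM in IPA members and 50.6 CPM in CCl4 members, 2.24-fold higher (1.61 to 3.18). The named-gene rule keeps such genes out of the ranking, and neutrophil markers summed to 169 and 78.6 CPM in the members. S100a8, which the rule sets to 0 in members, had no UMI in 69.3% of kept IPA barcodes and in 67.9% of kept CCl4 barcodes.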
